A study of Saccharomyces cerevisiae with 6 samples.

Results

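Excess of the phosphatase Ppz1 was examined here in yeast growing on plentiful glucose. The comparison sets the 1 library of cells overexpressing Ppz1 in 2% glucose against the 1 library of cells with the empty plasmid in the same sugar, which are 2 of the 6 mRNA-Seq libraries of the study. Of the 6687 features counted, all except *PPZ1* itself were considered. The 5205 features with a mean of at least 10 CPM (the deposited scaled counts per 1000000 of the largest library's total) over these libraries were compared, and 1481 lay below that level. All cells were BY4741, a haploid strain whose mating type is a, grown in synthetic medium lacking uracil. Control cells carried the empty pCM190 plasmid. The cells called *PPZ1* below carried pCM190 with the *PPZ1* coding region behind the tetO7 promoter, which is silent in the presence of doxycycline. Both cultures spent the night with doxycycline at 100 µg/ml, lost it by washing, and went from an OD600 of 0.2 to 0.55 in 3.5 h. They were then filtered and given fresh medium for 1 h, here with 2% glucose, so this shift and the handling were common to both. The other 4 libraries were from the same plasmids in 0.25% glucose and in 2% galactose.

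Ppz1 is a Ser/Thr phosphatase related to type 1 phosphatases and found in fungi. It restrains potassium uptake and expression of the sodium pump gene *ENA1*, and it is inhibited by the subunits Hal3 and Vhs3. Strong overexpression is known to stop growth. For mild expression from tetO promoters, the paper reports a growth defect in low glucose but none evident in abundant glucose. In galactose it reports a stronger effect, with growth abolished. These growth results are given for particular strains that the paper names, apart from the cells with the multicopy plasmid compared here. How the latter grew in abundant glucose is not stated. In a further strain, with the GAL promoter triggered by β-estradiol, the paper reports growth fully blocked even in abundant glucose. How much of the transcriptome moves when glucose is abundant is the question that this comparison addresses.

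The labels give 1 library per condition and no replicate, so no difference below was tested. Values after ± are standard errors of a log2 difference from Poisson counting of reads, and ranges in parentheses are 95% counting intervals. Neither covers the variation between cultures or between library preparations. Reads in features numbered 5644263 for control cells and 4921218 for *PPZ1* cells in 2% glucose, within a range of 1845237 to 6784469 over the 6 libraries. At these depths 10 CPM corresponds to 57.1 and 49.6 reads. *PPZ1* mRNA went from 450 reads (78.8 CPM, 71.7 to 86.4) to 62143 reads (12538 CPM, 12439.6 to 12637), 159-fold higher (145 to 175). It then made up 1.26% of all reads. Its reads cannot separate the chromosomal from the plasmid copy. *STE2*, the pheromone receptor gene of a cells, was at 592 and 559 CPM, and *MET17* and *LEU2*, which BY4741 lacks, had no reads in either library. *HIS3*, of which BY4741 keeps a partly deleted copy, was at 45.2 and 62.5 CPM. *URA3*, carried by the plasmid, went from 1660.4 to 2346 CPM (0.50 ± 0.02 on the log2 scale), and plasmid copy number was not measured.

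The rest of the transcriptome differed little. A log2 difference is that of the *PPZ1* library minus the control library after adding 1 CPM to each value, which understates the change of low genes. Over the 5205 genes its median was -0.03, 98.2% of genes lay within 0.5 of zero, and the central 90% lay between -0.29 and 0.28. Only 5 genes were at least 2-fold higher (0.0961% of those compared) and 3 at least 2-fold lower (0.0576%). At 1.5-fold the counts were 30 higher (0.576%) and 19 lower (0.365%). Each of these 49 differences had a 95% counting interval clear of zero, as had 1239 genes in all (23.8%). With the level minimum used, a difference past 1.5-fold could hardly fail this, so it lends the 49 no support. Of all genes 42.7% were above zero and 57.3% below, the shares to set beside the list counts that follow. Every list was chosen with earlier results of these data known. Between 10 and 30 CPM the standard deviation over 1111 genes was 0.25, against a counting error of 0.19, and above 1000 CPM it was 0.17 over 178 genes, against 0.021. Of the 30 higher genes 18 lay in the lowest of these level ranges, as did 13 of the 19 lower ones. The median of each chromosome lay between -0.042 and -0.0031.

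**Figure D1:**
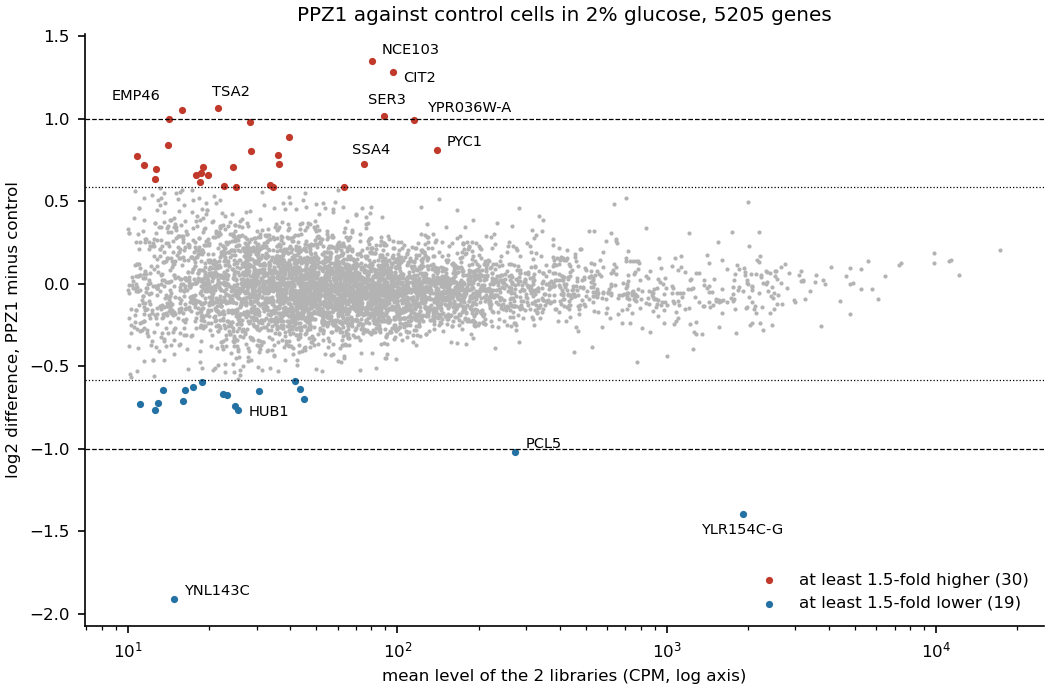
Mean level of each gene in both 2% glucose libraries (x axis, CPM, log scale) against its log2 difference, *PPZ1* minus control (y axis), 1 point per gene for 5205 genes; dotted lines mark 1.5-fold and dashed lines 2-fold. The cloud is narrow around zero, with 30 genes at least 1.5-fold higher (red), led by *NCE103* and *CIT2*, and 19 lower (blue), most of them at low levels.

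The genes with altered mRNA included targets of regulators that read short DNA words upstream of the gene. Rtg1 and Rtg3 activate the retrograde response, by which cells with impaired mitochondria raise genes that supply glutamate precursors, Msn2 and Msn4 activate general stress genes, and Cbf1 with Met31 and Met32 activates sulfur genes. The 6 windows printed here belong to genes described in the following paragraphs and show what such words look like in their promoters. Each window covers the 300 bases from 350 to 51 before the start codon, read in the direction of the gene from the RefSeq R64 genome: *CIT2* chrIII:122379-122678 on the minus strand, *DLD3* chrV:16005-16304 on the plus strand, *NCE103* chrXIV:559464-559763 on the plus strand, *TSA2* chrIV:1365713-1366012 on the minus strand, *HSP12* chrVI:106906-107205 on the plus strand and *MET14* chrXI:439436-439735 on the minus strand. Capitals mark matches, on either strand, to the words searched.
CIT2: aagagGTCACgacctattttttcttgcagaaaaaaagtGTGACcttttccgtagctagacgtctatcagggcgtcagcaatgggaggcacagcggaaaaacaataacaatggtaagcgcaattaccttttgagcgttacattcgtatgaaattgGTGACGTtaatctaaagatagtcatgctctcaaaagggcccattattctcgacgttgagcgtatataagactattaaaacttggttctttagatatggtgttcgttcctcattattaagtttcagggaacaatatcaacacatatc
DLD3: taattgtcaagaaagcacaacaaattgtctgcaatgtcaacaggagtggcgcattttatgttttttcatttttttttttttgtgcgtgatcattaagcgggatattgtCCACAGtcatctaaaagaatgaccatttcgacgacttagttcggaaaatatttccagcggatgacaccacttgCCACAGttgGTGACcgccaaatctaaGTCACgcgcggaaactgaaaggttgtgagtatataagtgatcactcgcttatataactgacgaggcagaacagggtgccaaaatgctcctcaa
NCE103: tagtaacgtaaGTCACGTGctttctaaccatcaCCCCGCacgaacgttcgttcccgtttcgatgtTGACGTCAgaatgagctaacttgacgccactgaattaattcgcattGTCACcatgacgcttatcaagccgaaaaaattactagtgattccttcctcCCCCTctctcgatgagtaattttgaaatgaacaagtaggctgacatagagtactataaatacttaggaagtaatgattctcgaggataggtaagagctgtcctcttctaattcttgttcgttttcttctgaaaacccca
TSA2: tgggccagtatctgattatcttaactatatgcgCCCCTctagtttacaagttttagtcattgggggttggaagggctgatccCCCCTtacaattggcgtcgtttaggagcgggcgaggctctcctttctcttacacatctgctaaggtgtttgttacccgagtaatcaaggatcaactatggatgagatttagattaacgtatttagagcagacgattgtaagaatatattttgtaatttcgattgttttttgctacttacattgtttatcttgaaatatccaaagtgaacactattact
HSP12: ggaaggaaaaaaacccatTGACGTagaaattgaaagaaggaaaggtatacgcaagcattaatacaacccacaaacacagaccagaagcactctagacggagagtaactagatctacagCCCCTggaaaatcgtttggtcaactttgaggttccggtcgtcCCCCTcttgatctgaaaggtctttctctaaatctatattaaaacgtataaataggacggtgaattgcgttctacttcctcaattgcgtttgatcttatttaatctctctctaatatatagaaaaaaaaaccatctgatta
MET14: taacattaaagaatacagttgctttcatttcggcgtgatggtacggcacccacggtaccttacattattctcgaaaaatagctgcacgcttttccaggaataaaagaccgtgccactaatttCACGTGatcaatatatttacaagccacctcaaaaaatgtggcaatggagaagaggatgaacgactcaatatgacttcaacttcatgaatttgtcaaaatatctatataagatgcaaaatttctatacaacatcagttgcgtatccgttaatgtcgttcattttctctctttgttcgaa

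The words were GTCAC (the R box of Rtg1 and Rtg3), AGGGG (the stress response element of Msn2 and Msn4), CACGTG (Cbf1, also read by Pho4), CTGTGG (Met31 and Met32), TGACTC (Gcn4), TTACTAA (Yap1), CCCCGC (Mig1) and TGACGT (the core of ATF/CRE sites). *CIT2* had 3 R boxes, the last of which overlaps a TGACGT, and *DLD3* had 2 beside 2 matches to CTGTGG. *NCE103* had 2 R boxes, 1 of them overlapping a CACGTG, together with a CCCCGC, 1 stress element and 2 overlapping TGACGT. *TSA2* and *HSP12* had 2 stress elements each, and *MET14* had 1 CACGTG. These words are short and frequent. Over 5130 windows of the same kind GTCAC occurred in 26.7%, AGGGG in 22.6%, TGACTC in 8.27%, TGACGT in 7.66%, TTACTAA in 7.54%, CTGTGG in 7.51%, CACGTG in 4.09% and CCCCGC in 3.28%. Of the 30 genes at least 1.5-fold higher, 17 (56.7%) had AGGGG and 10 (33.3%) had GTCAC. Of the 17 lower genes with a window, 2 had AGGGG and 7 had GTCAC, so the R box was not confined to the rises. A match is a description of the sequence and does not show binding.

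The largest rise was that of *NCE103* (chromosome XIV), which encodes carbonic anhydrase, the enzyme that turns carbon dioxide into the bicarbonate used by carboxylases. It had 255 reads (44.6 CPM) in control and 573 reads (116 CPM) in *PPZ1* cells, 2.59-fold higher (2.23 to 3.01), a log2 difference of 1.35 ± 0.11. The corresponding levels were 75.2 and 238 CPM in 0.25% glucose (1.65), where *PPZ1* cells were again higher, and 1080.3 and 1011 CPM in galactose (-0.10). *CST6*, for a transcription factor of the ATF/CREB family that activates *NCE103*, was at 69.9 and 59.9 CPM in 2% glucose (-0.22 ± 0.11). *PYC1*, which encodes pyruvate carboxylase, a user of bicarbonate that refills the citric acid cycle, rose past 1.5-fold, from 101 to 178 CPM (0.81 ± 0.08). In 0.25% glucose it was at 149 and 176 CPM and in galactose at 1166 and 1153 CPM.

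*CIT2* followed. It encodes the peroxisomal citrate synthase of the glyoxylate cycle and is the classical reporter of the retrograde response. It went from 318 to 680 reads, that is from 55.7 to 137 CPM, 2.46-fold higher (2.15 to 2.82; 1.29 ± 0.10). In 0.25% glucose control cells were at 57.3 and *PPZ1* cells at 158 CPM (1.44), while in galactose both were high, at 3430 and 3268 CPM (-0.07). *DLD3*, for a cytosolic D-lactate dehydrogenase under the same control, was at 141 and 193 CPM in 2% glucose (0.45 ± 0.07), short of 1.5-fold.

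Among the 7 retrograde targets listed (*CIT2*, *DLD3*, *PYC1*, *CIT1*, *ACO1*, *IDH1* and *IDH2*), 2 were at least 1.5-fold higher and 6 above zero, with a median of 0.17. *CIT1*, for the mitochondrial citrate synthase (183 and 187 CPM, 0.03 ± 0.06), and *ACO1*, for aconitase (223 and 228 CPM, 0.03 ± 0.06), were nearly level, as was *IDH1*, for a subunit of isocitrate dehydrogenase (-0.13 ± 0.13). The R box was found in 2 of these 7 promoters, those of *CIT2* and *DLD3*. None of the 5 genes for the pathway's regulators passed 1.5-fold. *RTG1*, *RTG2*, *RTG3*, *MKS1* and *LST8* ranged from -0.21 to 0.15, and none had a counting interval clear of zero. The 16 genes of the citric acid cycle compared had a median of 0.08, and 14 were above zero, beside 42.7% of all genes. The 35 genes of the respiratory chain and ATP synthase had a median of -0.04, with 12 above zero.

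*SER3* encodes 3-phosphoglycerate dehydrogenase, which draws on glycolysis to start serine synthesis. It went from 336 to 595 reads, 58.8 to 120 CPM, 2.04-fold higher (1.78 to 2.34; 1.02 ± 0.10). The rise was 67.1 to 181 CPM in 0.25% glucose (1.42), and the galactose levels were 46.4 and 49.6 CPM (0.09). Its paralog *SER33* was at 117 and 134 CPM (0.19 ± 0.08). Of the 12 genes for serine and glycine metabolism *SER3* alone passed 1.5-fold, and the median was 0.06. *CHA1*, for the serine deaminase, was the most abundant of them at 992 and 921 CPM (-0.11 ± 0.03).

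*TSA2*, which encodes the inducible cytosolic thioredoxin peroxidase, went from 78 to 147 reads, 13.7 to 29.7 CPM, 2.17-fold higher (1.64 to 2.90; 1.06 ± 0.19). It was at 20.3 and 27.9 CPM in 0.25% glucose and at 144 and 132 CPM in galactose. No other of the 25 peroxide and superoxide defence genes compared passed 1.5-fold. *CTT1*, for the cytosolic catalase, came closest, at 48.3 and 72.0 CPM (0.57 ± 0.11), and *AHP1*, for an abundant peroxiredoxin, was at 1969 and 2445 CPM (0.31 ± 0.02). *TSA1*, the abundant paralog of *TSA2*, was at 1322 and 1491 CPM (0.17 ± 0.02), and *GPX2*, for a glutathione peroxidase, lay lowest at 101 and 80.9 CPM (-0.31 ± 0.09). The list had a median of 0.08 with 19 members above zero, and 9 of its 25 promoters held the Yap1 word.

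*EMP46*, for a membrane protein of vesicles between the endoplasmic reticulum and the Golgi, was the remaining gene past 2-fold. Its reads rose from 57 to 108, 9.98 to 21.8 CPM, 2.18-fold higher (1.57 to 3.07; 1.05 ± 0.22). It was at 15.2 and 19.5 CPM in 0.25% glucose and at 82.0 and 76.3 CPM in galactose. Other genes of this transport step did not share the rise. Of the 28 compared, 24 were below zero, beside 57.3% of all genes, and the median was -0.09. *EMP47*, the paralog of *EMP46*, was at 127 and 119 CPM (-0.10 ± 0.08).

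Several further rises lay short of 2-fold once 1 CPM was added to each value. Without that addition *YPR036W-A* was 2.00-fold, *TKL2* 2.11-fold and *NQM1* 2.02-fold higher, so their place below the mark depends on the pseudocount. *YPR036W-A* (*SPO24*), a short gene with a described role in sporulation, went from 76.9 to 154 CPM (0.99 ± 0.09), and it was also higher with *PPZ1* in 0.25% glucose (67.7 to 207 CPM) and by less in galactose (3104 to 4046 CPM). *TKL2*, for the minor transketolase, and *NQM1*, for the minor transaldolase, belong to the pentose phosphate pathway and were named after their values were seen. *TKL2* stood at 9.10 and 19.2 CPM (1.00, just under the 2-fold mark) and *NQM1* at 18.7 and 37.9 CPM (0.98). The *TKL2* feature overlaps that of YBR116C, which was below the level minimum. *SSA4*, for the heat-inducible Hsp70 chaperone, rose from 56.5 to 94.2 CPM (0.73 ± 0.10). It was the only one of 23 heat shock and chaperone genes past 1.5-fold, their median being 0.07, and it was higher with *PPZ1* in all 3 sugars (0.86 in 0.25% glucose and 0.49 in galactose). Its abundant relatives *SSA2* (2817 and 2774 CPM, -0.02 ± 0.02) and *SSB1* (3052 and 3222 CPM, 0.08 ± 0.02) were nearly level.

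**Figure D2:**
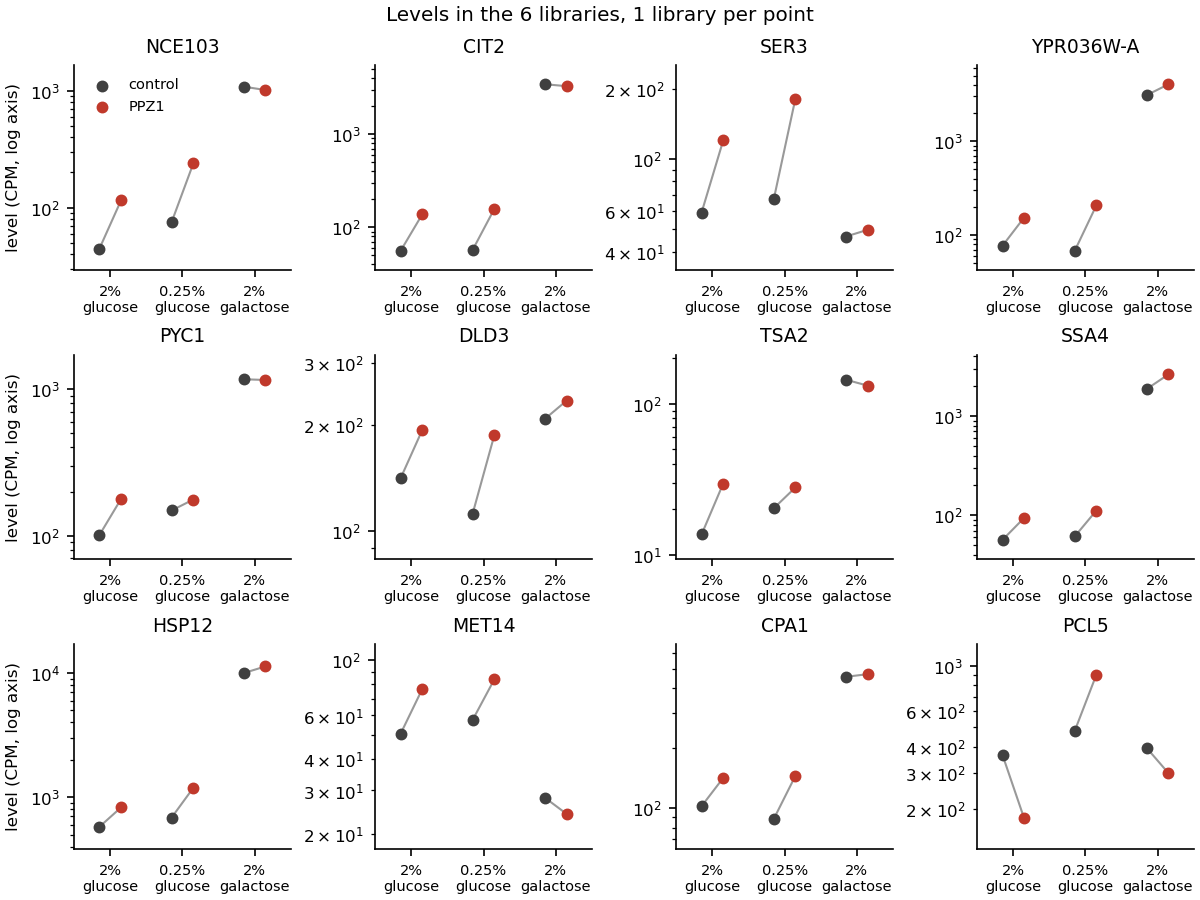
Level of 12 genes (CPM, log axis, a different range in each panel) in control (grey) and *PPZ1* (red) cells in each of the 3 sugars, 1 library per point, with a line joining the libraries of a sugar. *NCE103*, *CIT2* and *SER3* were higher with *PPZ1* in both glucose media and near level in galactose, while *PCL5* was lower in 2% glucose (367 to 180 CPM) and higher in 0.25% glucose (480 to 901 CPM).

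A broad but shallow difference was seen in genes of the general stress response, which Msn2 and Msn4 induce when growth conditions worsen. All 27 genes of the list were above zero, beside 42.7% of all genes. In 25 of them the counting interval was clear of zero, beside 23.8% of all genes. The list was chosen with earlier results of these data known, so its membership may not be independent of these counts. Only *ALD3*, for a cytosolic aldehyde dehydrogenase, passed 1.5-fold, with 26.3 and 45.8 CPM (0.78 ± 0.15). The differences ran from 0.08 to 0.78 with a median of 0.34, and the summed level of the list went from 4563 to 5600 CPM. *HSP12*, for a small membrane-associated heat shock protein, had 578 CPM in control and 828 CPM in *PPZ1* cells (0.52 ± 0.03), and *HOR7*, the most abundant member, had 840 and 888 CPM (0.08 ± 0.03). The list's median was 0.08 in 0.25% glucose, where 16 members were above zero, and -0.01 in galactose, where 13 were. For all genes these medians were -0.26 and -0.13, with 34.0% and 27.7% of genes above zero. AGGGG was present in 26 of the 27 promoters, a feature by which such genes are commonly recognised. Members of the list recur in others: *CTT1* also counts as a peroxide defence gene and *ALD3* as an acetate gene. Of 8 markers of stationary phase, the state of starved cultures, 5 were high enough to compare and all 5 were above zero (median 0.39). They included *SNZ1*, for a protein of vitamin B6 synthesis, at 27.1 and 45.6 CPM (0.73 ± 0.15), and *YGP1*, for a secreted glycoprotein, at 531 and 742 CPM (0.48 ± 0.04). The part of culture state in the stress list's difference was not tested.

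Genes for glycogen and trehalose, the storage carbohydrates, were mostly above zero (16 of 20, beside 42.7% of all genes) with a median of 0.21. In 9 of them the counting interval was clear of zero, beside 23.8% of all genes, and 1 passed 1.5-fold. That gene was *GIP2*, for a putative regulatory subunit of the phosphatase Glc7, at 8.4 and 14.5 CPM (0.72 ± 0.24). *GDB1*, for the glycogen debranching enzyme, was at 56.5 and 73.8 CPM (0.38 ± 0.11), and *UGP1*, for UDP-glucose pyrophosphorylase and the most abundant member, at 510.5 and 526 CPM (0.04 ± 0.04). Of the 9 Hog1 targets compared all were above zero, beside 42.7% of all genes, the median being 0.29. However, 4 of them (*ALD3*, *CTT1*, *PGM2* and *HOR7*) are also in the stress list. *GPD1*, the glycerol synthesis gene most used to follow Hog1, was at 270.5 and 287 CPM (0.08 ± 0.05).

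Glycolytic and fermentative genes, among the most abundant mRNAs of the cell, were above zero for 16 of 18 members, beside 42.7% of all genes. Their median was 0.12 and their sum went from 85086 to 92630 CPM. In galactose the same list had a median of 0.23, against -0.13 for all genes. *TDH3*, for the main glyceraldehyde-3-phosphate dehydrogenase, was at 16029 and 18511 CPM (0.21 ± 0.01), and its minor isoform gene *TDH1* at 238 and 329 CPM (0.46 ± 0.05). Of 9 acetate and acetyl-CoA genes 8 were above zero, beside the same 42.7%. *ACH1*, which encodes a mitochondrial CoA transferase, was at 48.3 and 68.6 CPM (0.50 ± 0.11), and *ALD6*, for the main cytosolic acetaldehyde dehydrogenase, at 542 and 649.5 CPM (0.26 ± 0.04).

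Sulfur metabolism held more genes past 1.5-fold than any other list. Of 24 genes for sulfate assimilation and methionine compared, 5 were at least 1.5-fold higher (beside 0.576% of all genes), none was lower by that much, 22 were above zero and the median was 0.29. *SUL2*, for a sulfate permease, went from 20.5 to 36.5 CPM (0.80 ± 0.16). *MET2*, for homoserine acetyltransferase, went from 18.4 to 30.7 CPM (0.71 ± 0.18) and *STR3*, for cystathionine beta-lyase, from 14.2 to 23.2 CPM (0.67). The steps that activate and reduce sulfate moved likewise, *MET14* (adenylylsulfate kinase) from 50.6 to 76.5 CPM (0.59 ± 0.11) and *MET16* (the reductase of the activated sulfate) from 14.4 to 22.6 CPM (0.62). With a pseudocount of 5 CPM *MET14*, *MET16* and *STR3* no longer passed 1.5-fold, and of the 5 genes only *MET14* had a mean of 50 CPM or more.

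*MET3*, for ATP sulfurylase, the first of these steps, was at 43.8 and 61.9 CPM (0.49 ± 0.12). The abundant *MET6*, for methionine synthase, was at 1082 and 1343 CPM (0.31 ± 0.03), and *CYS4*, at 688 and 691 CPM (0.01 ± 0.03), was level. *SUL1*, the other sulfate permease gene, was below the level minimum, with 8 reads in control and 42 in *PPZ1* cells. In the other sugars the list had a median of -0.26 (0.25% glucose) and -0.01 (galactose), which lay beside -0.26 and -0.13 for all genes. CACGTG was found in 12 and CTGTGG in 13 of the 24 promoters. *MET17*, for the enzyme that fixes sulfide, is deleted in BY4741 and so in both cultures.

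**Figure D3:**
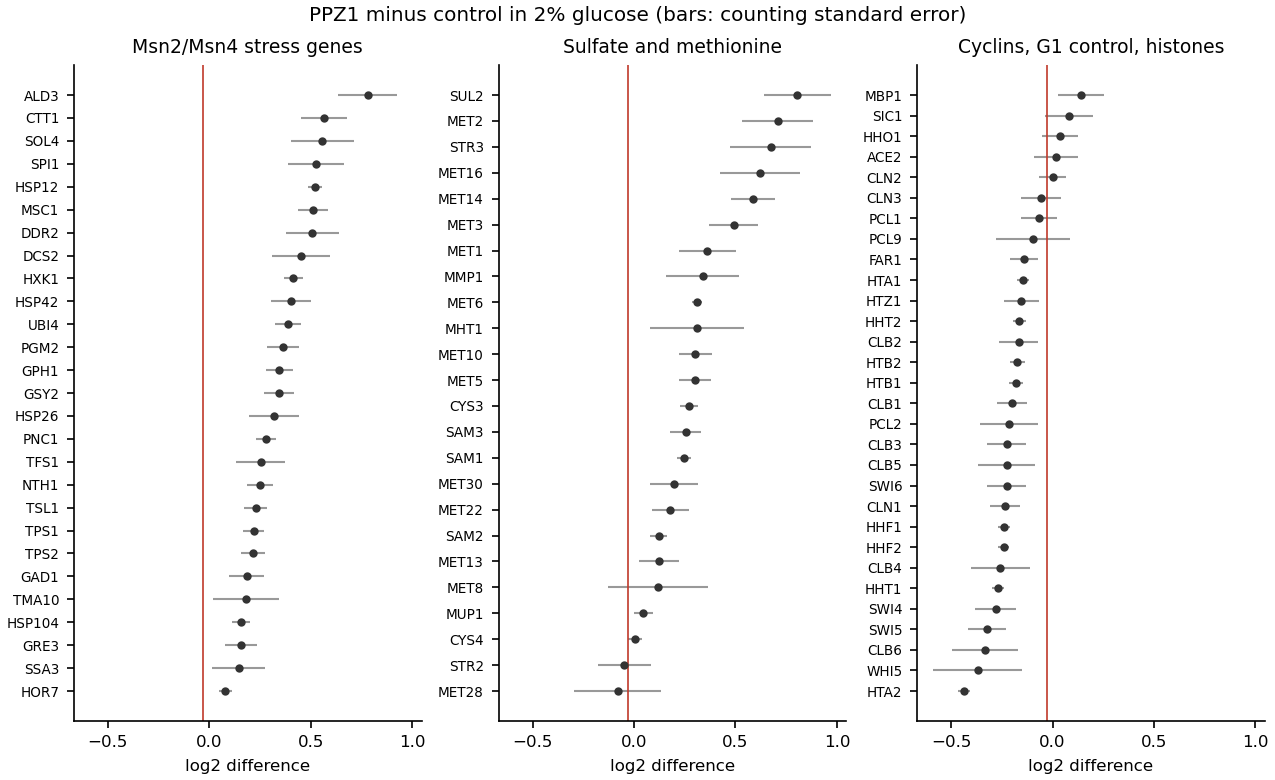
Log2 difference in 2% glucose, *PPZ1* minus control, of each gene compared from the Msn2/Msn4 stress list (left, 27 genes), the sulfate and methionine list (middle, 24) and the cyclin, G1 and histone lists (right, 30). Points are single differences between 1 library a side, bars are counting standard errors, and the red line marks the median of all genes at -0.03; the stress genes all lie to its right, from *HOR7* to *ALD3*.

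Other amino acid pathways were closer to the background. Of 9 arginine synthesis genes 8 were above zero with a median of 0.23, none reaching 1.5-fold. *CPA1*, for a subunit of carbamoyl phosphate synthetase, was at 102 and 142 CPM (0.47 ± 0.08) and *ARG4*, for argininosuccinate lyase, at 233 and 298 CPM (0.35 ± 0.05). The *CPA1* feature overlaps YOR302W, its upstream reading frame, on the same strand. All 8 arginine promoters read held the Gcn4 word TGACTC. *LYS20*, for homocitrate synthase, was at 66.9 and 92.8 CPM (0.47 ± 0.10), but 4 of the 8 lysine genes were below zero. Medians were 0.07 for histidine, 0.05 for branched-chain, 0.03 for aromatic and 0.05 for purine synthesis, and -0.09 for the 13 amino acid permease genes compared.

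The fall past 2-fold in a gene of known function was that of *PCL5* (chromosome VIII), which encodes a cyclin that directs the kinase Pho85 to the transcription factor Gcn4 and so promotes its degradation. It went from 2096 to 894 reads, 367 to 180 CPM, 2.03-fold lower (1.88 to 2.20; -1.02 ± 0.06). In 0.25% glucose the order was the opposite, with 480 CPM in control and 901 CPM in *PPZ1* cells (0.91), and in galactose the levels were 396 and 299 CPM (-0.40). *GCN4* itself was at 1003 and 987 CPM (-0.02 ± 0.03), *PHO85* at 49.7 and 60.7 CPM (0.28 ± 0.12) and *GCN2*, for the kinase that signals amino acid shortage, at 108 and 89.0 CPM (-0.27 ± 0.09). With libraries scaled by the median of ratios or by the upper quartile, *PCL5* no longer reached 2-fold.

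The other features past 2-fold were no well-characterised genes. YLR154C-G, of 150 bp, lies within the ribosomal DNA repeats of chromosome XII (462522 to 462671). It had 15839 reads in control and 5233 in *PPZ1* cells, 2773 and 1056 CPM, 2.63-fold lower (2.55 to 2.71; -1.39 ± 0.02). Its levels in the other libraries were 776 and 2253 CPM in 0.25% glucose and 2459 and 2922 CPM in galactose, so that they spread widely among control cells too. *TAR1*, which is antisense to the ribosomal RNA, was at 13.5 and 5.04 CPM in 2% glucose and at 2.36 and 25.8 CPM in 0.25% glucose. In the same repeats YLR154W-A had 32 reads in control and 7 in *PPZ1* cells, and YLR154W-B had 46 and 6, both below the level minimum. These features were counted inside the repeats that produce ribosomal RNA, the amount of which left in each library was not measured, and its part in the differences of YLR154C-G and its neighbours was not tested.

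YNL143C, annotated next to the ammonium permease gene *MEP2* on chromosome XIV, had 137 reads in control and 28 in *PPZ1* cells, 24.0 and 5.65 CPM (-1.91 ± 0.26). It was at 33.8 and 27.9 CPM in 0.25% glucose and 10.3 and 9.22 CPM in galactose. *MEP2* itself was at 22.1 and 22.2 CPM (0.01 ± 0.18) in 2% glucose, and the neighbour on the other side of it, *AAH1*, at 164 and 156 CPM (-0.07).

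Smaller falls were concentrated in short features. Of the 15 largest falls at a mean of 50 CPM or more, 10 were shorter than 500 bp, a limit chosen after the lengths were seen, beside 10.6% of the 3064 genes at that level. Their median coding length was 399 bp, against 1428 bp. *RPL29*, for a protein of the large ribosomal subunit, was at 903 and 649 CPM (-0.48 ± 0.03), *ATP20*, for a subunit of ATP synthase, at 85.4 and 59.3 CPM (-0.52 ± 0.10), and *GIM4*, for a subunit of prefoldin, at 98.0 and 68.6 CPM (-0.51 ± 0.10). Of these 15 falls 14 were also below zero in galactose, beside 72.3% of all genes, and 11 were above zero in 0.25% glucose. Of all 3064 genes at that level 988 were above zero in 0.25% glucose, but 276 of the 324 shorter than 500 bp were. With the compared genes ranked by coding length and cut into near-equal bins of 520 or 521 genes, the shortest bin (up to 450 bp) and the longest (from 2982 bp) both had a median of -0.09, against 0.03 for the bin from 882 to 1071 bp. The part of coding length in these falls was not tested.

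Histone genes and cyclins lay below the rest. Of 10 histone genes 9 were below zero, beside 57.3% of all genes, with a median of -0.18. In 8 of these the counting interval was clear of zero, beside 23.8% of all genes. Above 1000 CPM, where *HTA2* and *HHF2* lay, the standard deviation over genes was 0.17 against a counting error of 0.021. *HTA2*, for histone H2A, was at 1154 and 853 CPM (-0.44 ± 0.03), and *HHF2*, for histone H4, at 1154 and 976 CPM (-0.24 ± 0.03). The histone median was 0.19 in 0.25% glucose and -0.03 in galactose, against -0.26 and -0.13 for all genes. Histone genes are themselves short. Of 20 cyclin and G1 control genes 17 were below zero, beside 57.3% of all genes, with a median of -0.21. In 8 of these the counting interval was clear of zero, beside the same 23.8%. None reached 1.5-fold.

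Of the G1 cyclin genes, *CLN1* was at 156 and 133 CPM (-0.23 ± 0.07), *CLN2* was at 168 CPM in both libraries (-0.00 ± 0.07) and *CLN3* at 77.9 and 74.9 CPM (-0.06 ± 0.10). *CLB6*, for an S-phase cyclin, was at 32.0 and 25.2 CPM (-0.33 ± 0.16), and *SWI4*, for the DNA-binding subunit of the factor that switches on G1 genes, at 84.6 and 69.4 CPM (-0.28 ± 0.10). *WHI5*, for the repressor of that factor, was at 16.5 and 12.5 CPM (-0.37 ± 0.22). In bulk RNA, fewer cells in a phase of the cycle and less mRNA per cell cannot be told apart.

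Genes for the machinery of translation were near the background. The 139 cytosolic ribosomal protein genes had a median of -0.08, with 102 below zero, beside 57.3% of all genes. They summed to 262664 CPM in control and 251577 CPM in *PPZ1* cells. Their median was 0.25 in 0.25% glucose and 0.07 in galactose, against -0.26 and -0.13 for all genes. The 0.25% glucose difference followed coding length over all genes (Spearman correlation -0.68), and the part of length here was not tested. The 105 ribosome biogenesis genes (-0.04) and 38 translation factor genes (-0.01) had medians close to that of all genes. *TEF2*, for elongation factor EF-1A, was at 10749 and 11895 CPM (0.15 ± 0.01). *DOT6*, for a repressor of ribosome biogenesis, and *NOC2*, for a protein of ribosome assembly, differed by less than 1.5-fold.

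**Figure D4:**
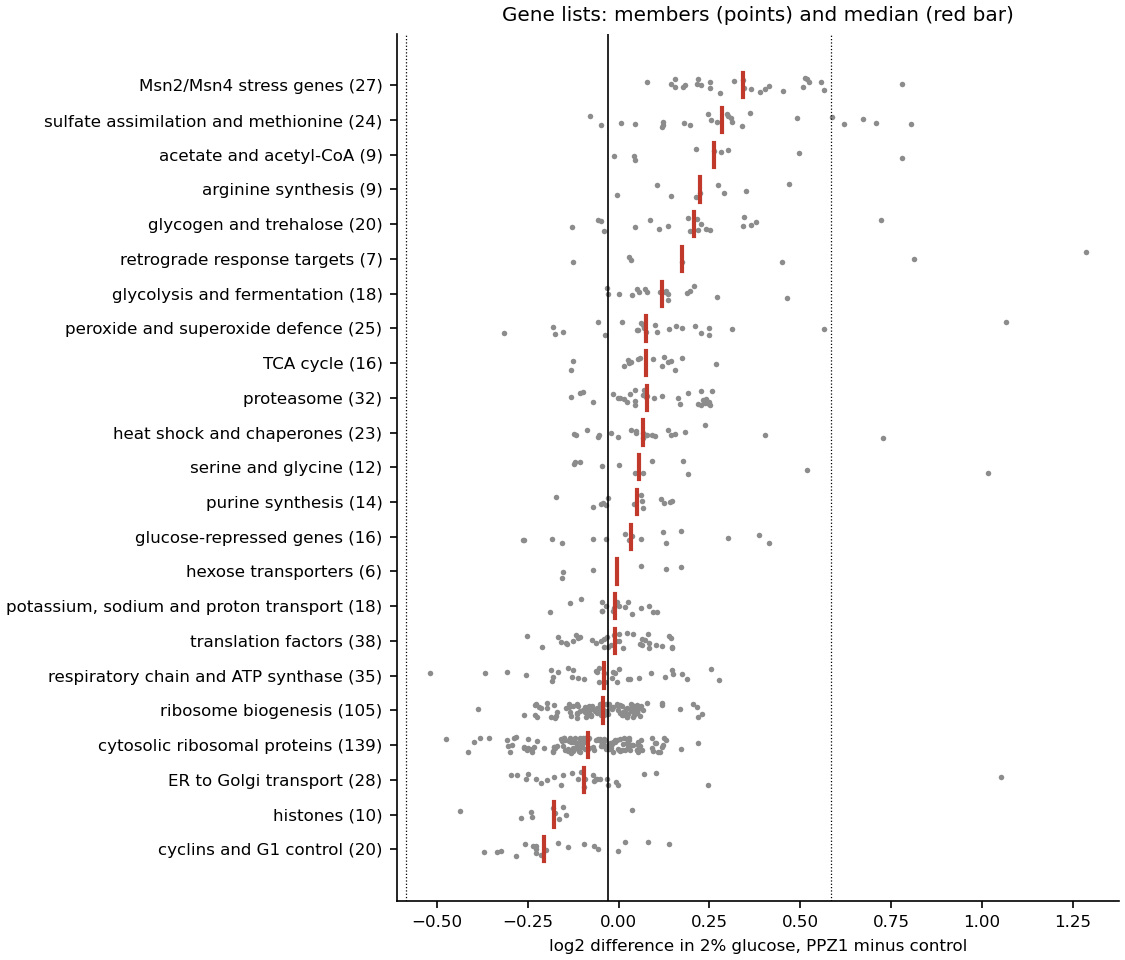
Log2 difference in 2% glucose, *PPZ1* minus control, for the members of 23 gene lists (points, with the number compared in parentheses) and the median of each list (red bar); the black line is the median of all 5205 genes and dotted lines mark 1.5-fold. Medians run from 0.34 for the Msn2/Msn4 stress genes to -0.21 for cyclins and G1 control, and nearly all members lie inside the dotted lines.

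Genes tied to the known functions of Ppz1 did not pass 1.5-fold. Of 18 genes for potassium, sodium and proton transport the median was -0.01 and the range -0.19 to 0.11. *TRK1* and *TRK2*, for the potassium importers, were at 118 and 110 CPM (-0.10 ± 0.08) and at 45.9 and 49.4 CPM (0.11 ± 0.13). *ENA1*, the sodium pump gene that Ppz1 restrains, was at 86.0 and 83.3 CPM (-0.04 ± 0.10), *NHA1*, for the sodium and proton antiporter, at 125 and 131 CPM (0.06 ± 0.08), and *PMA1*, for the plasma membrane proton pump, at 5848 and 5713 CPM (-0.03 ± 0.01). *ENA1*, *ENA2* and *ENA5* are close copies whose reads may be shared. The inhibitor genes *SIS2* (Hal3), *VHS3* and *CAB3* were at 0.07 ± 0.10, 0.15 ± 0.13 and 0.17 ± 0.11, and the paralog *PPZ2* was at 33.6 and 33.5 CPM (-0.00 ± 0.15).

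No gene compared from the list of glucose-repressed genes passed 1.5-fold. Of 33 listed, 17 were below the level minimum, and the 16 compared had a median of 0.03 with 10 above zero. In 5 of the 16 the counting interval was clear of zero, 4 above and 1 below, beside 23.8% of all genes. Among those under the minimum, *MLS1*, for malate synthase, had 5 reads in control and 14 in *PPZ1* cells. The upper end was held by *HXK1*, for the hexokinase made when glucose is scarce, at 288 and 384 CPM (0.41 ± 0.05), and *GLK1*, for glucokinase, at 302 and 395 CPM (0.39 ± 0.05), both overlapping another feature on the same strand. *SUC2*, for invertase, was at 53.6 and 54.7 CPM (0.03 ± 0.12). *SNF1*, for the kinase of low-glucose signalling, was at 98.7 and 85.7 CPM (-0.20 ± 0.09), *REG1*, for the subunit that directs Glc7 to it, at 199.7 and 191 CPM (-0.06 ± 0.06), *MIG1*, for the repressor, at 48.7 and 53.5 CPM (0.13 ± 0.12) and *HXK2* at 971 and 996 CPM (0.04 ± 0.03).

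The remaining lists were mostly close to zero. Of 32 proteasome genes 26 were above zero, beside 42.7% of all genes, with a median of 0.08. Of 25 cell wall genes 16 were, with a median of 0.03, and 1 passed 1.5-fold, *PIR3*, for a wall glycoprotein, at 9.63 and 15.5 CPM (0.64 ± 0.23). Below zero were 45 of 70 mitochondrial ribosomal protein genes (median -0.04), 17 of 26 ergosterol genes (median -0.02, just above zero with the median of ratios) and 9 of 15 a-cell mating genes (median -0.07). These counts lay near the share of all genes below zero, 57.3%, and the all-gene median was -0.03. None of the 10 sporulation markers reached the level minimum, and of the 4 alpha-cell markers only *SAG1*, for alpha-agglutinin, did (27.0 and 31.1 CPM).

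The 3 comparisons of *PPZ1* with control cells share no library, so their values can be set side by side. Of the 30 genes at least 1.5-fold higher in 2% glucose, 25 were above zero in 0.25% glucose, beside 34.0% of all 5205 genes, and 14 were at least 1.5-fold higher there, beside 4.44%. Their median in 0.25% glucose was 0.55, against -0.26 for all genes. In galactose 13 of the 30 were above zero, beside 27.7%, none was 1.5-fold higher and the median was -0.02, against -0.13. For the 19 lower genes, 12 were above zero in 0.25% glucose, beside the same 34.0%, and their median there was 0.08, against -0.26. Of these 19, 5 were at least 1.5-fold higher in 0.25% glucose, beside 4.44%, and 4 at least 1.5-fold lower, beside 29.5%. In galactose 14 of the 19 were below zero, beside 72.3%. Across all 5205 genes the Spearman correlation of the 2% glucose difference was 0.15 with that in 0.25% glucose and 0.27 with that in galactose. These are correlations over genes, which are not independent replicates. The 0.25% glucose difference also followed coding length, with a Spearman correlation of -0.68, against -0.11 in 2% glucose and -0.14 in galactose, and the part of length in the side-by-side values was not tested.

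**Figure D5:**
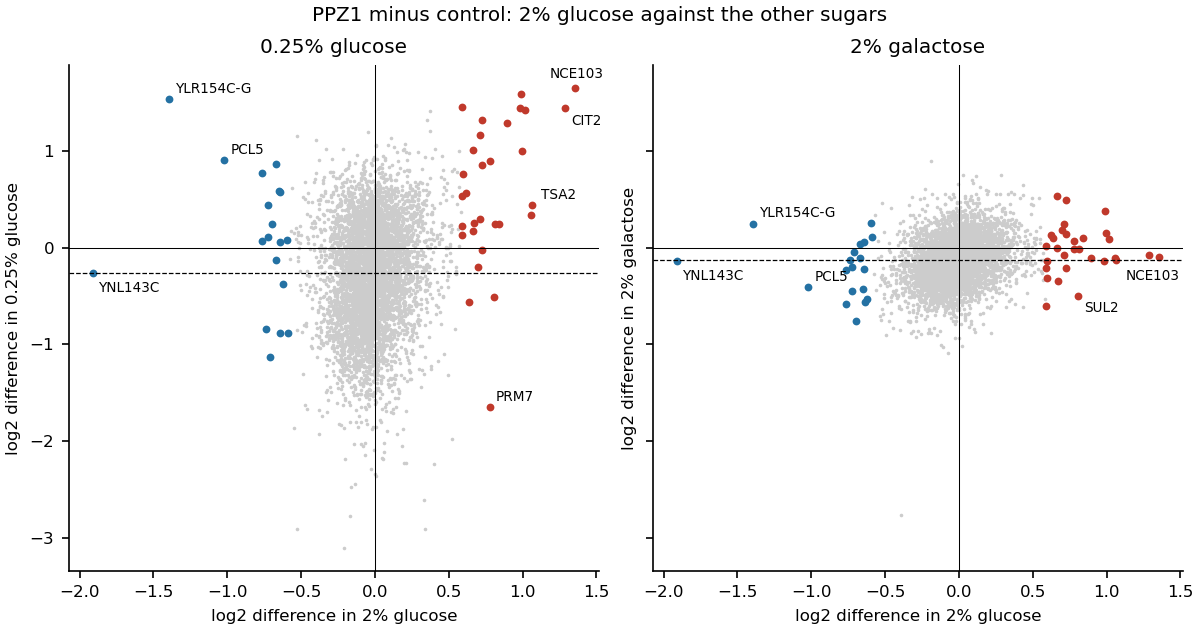
Log2 difference, *PPZ1* minus control, in 2% glucose (x axes) against that in 0.25% glucose (left) and in 2% galactose (right), 1 point per gene for 5205 genes, with genes at least 1.5-fold higher (red) or lower (blue) in 2% glucose; dashed lines mark the median of all genes in the other sugar, -0.26 and -0.13. Of the 30 red genes 25 lie above zero in 0.25% glucose and 13 in galactose.

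Many of the 30 higher genes are ones that galactose induces strongly without any excess of Ppz1. In control cells 20 of them were at least 2-fold higher in galactose than in 0.25% glucose, beside 848 genes (16.3%) overall. The median of the 30 on that scale was 2.71, against -0.17 for all genes. *CIT2* was at 57.3 CPM in 0.25% glucose and 3430 CPM in galactose in control cells, *PYC1* at 149 and 1166 CPM, and *SSA4* at 61.2 and 1879 CPM. The exceptions included *SER3*, which was lower in galactose (67.1 and 46.4 CPM), and *MET14* (57.6 and 28.1 CPM).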

How the data were processed

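mRNA-Seq of 6 libraries, 1 per plasmid and carbon source, was grouped by the labels. The labels name Bowtie2 and SeqMonk 0.32.1; the version of the former and the genome build are not given in the sources used here. For control cells in 0.25% glucose the deposited values are whole read counts over each coding sequence with 50 bp on both sides. The other deposited columns are a signal, made by the authors by multiplying counts by 1 factor per library (1.19 and 1.37 for control and *PPZ1* in 2% glucose). Whole reads (within 0.01) came out for 100% of values once the factor was undone, and no column (0) was left unmatched to a sample. CPM were deposited values over the total of the largest library, so the authors' scaling was kept.

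The 2-fold threshold is the study's. The minimum of 10 CPM, the pseudocount of 1 CPM and the 1.5-fold threshold are not. No test was run, since 1 library a side gives no estimate of spread. An additive model on all 6 libraries would leave 2 residual degrees of freedom but would test the mean difference over the sugars, and it was not fitted. The recovered reads were therefore given no count test.

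The gene lists (51) and the genes described were chosen with earlier results of these data known. Named genes were those past 2-fold, the 15 largest rises and falls at 50 CPM, in each list the 2 of highest level and the 2 of largest change, and genes the study names for Ppz1; further genes of a list were named for context after their values were seen. Feature names matched RefSeq R64 for 5982 genes, 5971 with the same ends. Promoter windows (300 bases) were read for 5130 genes, and the word CTGTGG was added after the files were seen. Intervals of levels and folds are exact (95%), those of log2 differences come from the counting standard error, and all cover counting error only. Python 3.11.15, numpy 2.4.6, pandas 2.3.3, scipy 1.17.1 and matplotlib 3.10.9 were used. Alternatives tried were 3 other scalings, pseudocounts of 5 and 0.1 CPM, no minimum and one of 50 CPM, subtraction of the length trend (a median over 301 genes of similar coding length), and features without overlap.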

Additional observations from a re-analysis of the deposited data

Results flagged for a closer look

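In 7 features the difference between *PPZ1* and control cells passed 1.5-fold in opposite directions in 2% glucose and in another sugar. With 1 library a side the difference between sugars was not tested. The 0.25% glucose difference followed coding length over all genes (Spearman correlation -0.68). Higher there were YLR154C-G (150 bp), *HUB1* (222 bp), *FYV1* (486 bp), *PCL5* (690 bp) and YER087C-A, and lower was *PRM7* (2097 bp). The part of coding length in these opposite values was not tested. *PCL5* was at -1.02 in 2% glucose and 0.91 in 0.25% glucose, and the ribosomal DNA feature YLR154C-G at -1.39 and 1.54. *PRM7*, a pheromone-regulated gene of low level, was at 0.78 in 2% glucose and -1.65 ± 0.56 in 0.25% glucose. The latter value rests on 37 reads in control and 2 in *PPZ1* cells (5.45 and 1.05 CPM), both under 10 CPM. *HUB1*, for a ubiquitin-like protein, was at -0.76 and 0.77, *FYV1* at -0.65 and 0.59 and YER087C-A at -0.67 and 0.86 in these media. The *FYV1* feature overlaps *RPS11A* on the same strand. YNR034W-A, a short feature, was at 0.59 in 2% glucose and -0.60 in galactose, where its levels were 3348 and 2201 CPM. *PRM7*, *FYV1*, *HUB1*, YER087C-A and YNR034W-A were picked by this pattern, after their values were seen.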

How the results depend on the processing

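No paired analysis was possible because each condition had 1 library and no replicate numbers pair samples across groups. Of the 5 genes at least 2-fold higher, all were among the 8 found with the median of ratios and the 8 with the upper quartile, where *TKL2*, *NQM1* and *YPR036W-A* were added and *PCL5* fell short of 2-fold. A pseudocount of 5 CPM left 2 genes (without *EMP46*, *SER3* and *TSA2*), a minimum of 50 CPM left 3, and no minimum gave 26, with 23 instead of 3 at least 2-fold lower. At 1.5-fold, 30 higher and 19 lower became 17 and 7 with the pseudocount of 5 CPM, 7 and 2 with the minimum of 50 CPM, and 123 and 128 with no minimum, where counts of a few reads enter. For the median log2 difference, all genes gave -0.0288 as reported, -0.00252 with the median of ratios, -0.00675 with the upper quartile, -0.0176 with *PPZ1* left out of the totals, -0.0171 with no minimum and -0.0358 at 50 CPM. Of the genes named by the rules above, none that passed 1.5-fold changed sign under the other scalings and pseudocounts or without the length trend. This check had little room to fail and is no support for these genes. A pseudocount equal on both sides cannot reverse a sign. The median of ratios and the upper quartile differed from the scaling used by -0.0267 and -0.0223 in log2, against differences of at least 0.585. Genes described only after their values were seen, such as *TKL2*, *NQM1* and *HUB1*, were not part of this check. The medians of 12 of 50 lists changed sign under at least 1 alternative, 6 of them under another scaling. Those 6 lay between -0.0249 and -0.00351 as reported, and included the transport, translation factor, ergosterol and Ppz1 regulator lists. Removal of the length trend moved 20 of 217 named genes and 6 of 50 list medians by more than their error. Leaving out features that overlap others, chosen after seeing the data, kept every count within 1.5 times. Depth limits single differences at 10 to 30 CPM to a counting error of about 0.19 on the log2 scale, and the spread between replicate cultures in 2% glucose was not measured.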
